A study of Mus musculus with 18 samples.

Results

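Neurofilaments, peripherin and alpha-internexin are the intermediate filaments of mature neurons. Their 5 genes, Nefh, Nefm, Nefl, Prph and Ina, were followed through every probe set that the array's annotation assigns to one of them and to no other gene. These are 5 of 12393 genes named on the array, and that rule gave 10 of its 22626 probe sets: 1 each for Nefh, Nefm and Nefl, 4 for Prph and 3 for Ina. Of these 10, 8 were bright enough to be tested, and 2 Prph probe sets (1420256_x_at and 1449797_x_at) lay below the limit on mean signal and are given as values only.

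RNA came from a pair of regions of mice of an amyotrophic lateral sclerosis (ALS) model, a disease in which motor neurons die. One was the oculomotor nucleus, whose motor neurons move the eyes and are spared in the disease, and the other was the cervical spinal cord, whose motor neurons are affected. Each region was taken from mutant mice of 10 weeks, mutant mice of 6 weeks and control mice of 10 weeks, and each of these 6 groups has 3 arrays. The labels write ALS model beside every sample, controls included, and name no mutation, strain or pooling of animals. The submitters call the replicates of a group independent without tying an array to 1 animal, so the spread behind each p-value is that of these arrays and may be partly technical. No control of 6 weeks was measured, so a difference between mutants of 6 and 10 weeks cannot be told apart from ordinary growth.

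One of the 18 arrays, control spinal cord replicate 1, is not used, since its signals correlated with those of the other arrays at 0.0104 to 0.0143 across probe sets, against 0.957 to 0.985 among the 17 arrays used. Median signals of those 17 ran from 207.1 to 226.1, and precision is limited by their small number. Markers of the tissues gave a mixed check of the labels. All 5 spinal Hox genes tested were called lower in the oculomotor samples and the 4 monoamine neuron genes of the midbrain and raphe were higher. Some of these genes passed the limit on mean signal only through the region where they are bright. Hoxc8, Hoxb6 and Hoxd8 averaged 26.2, 55.7 and 53.3 in oculomotor samples, against 1687, 974 and 1272 in spinal cord. The monoamine gene Slc6a4 averaged below 25 in each spinal cord group. Phox2a, a transcription factor that oculomotor neurons need, was dim in both regions, with signals of 33.4 to 69.7 in oculomotor samples and 38.5 to 84.6 in spinal cord. Below, a signal is the brightness of a probe set in the authors' units, a log2 fold change is taken on log2(signal + 25), SE is its standard error, and a probe set is "called" where limma, fitted to 13575 probe sets, gave an adjusted p under 0.05. Signals of different probe sets are not compared with each other, because each set of probes binds with its own strength.

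Nefl, Nefm and Nefh encode the light, medium and heavy neurofilament subunits, which form filaments that fill the axon and set its calibre. The light subunit is the one on which assembly depends, and the medium and heavy subunits carry long tails that are heavily phosphorylated in the axon. Alpha-internexin, the product of Ina, joins them in filaments of the central nervous system, while peripherin, the product of Prph, is found above all in neurons with axons outside the brain and cord, including motor neurons. Neurofilament and peripherin accumulations in motor neurons are a known feature of ALS.

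The promoters of Prph and Ina are shown because they are the 2 of the 5 genes matched in the promoter table. Among the results below, 1 of the 4 Prph probe sets was far lower in the oculomotor nucleus, and the Ina probe sets were called in neither direction. Each stretch is the 250 bases before the gene's start on the plus strand of mouse assembly GRCm38.p6, from RefSeq; Prph lies at chr15:99054924-99055173 and Ina at chr19:47014431-47014680. Capitals mark a TATAAA box and CCGCCC, the reverse complement of the GC box GGGCGG.
Prph: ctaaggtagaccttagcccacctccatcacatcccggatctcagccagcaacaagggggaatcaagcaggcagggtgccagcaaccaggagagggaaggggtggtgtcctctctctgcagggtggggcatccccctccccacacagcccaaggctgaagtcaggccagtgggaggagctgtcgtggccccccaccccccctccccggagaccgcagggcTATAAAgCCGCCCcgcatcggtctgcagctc
Ina: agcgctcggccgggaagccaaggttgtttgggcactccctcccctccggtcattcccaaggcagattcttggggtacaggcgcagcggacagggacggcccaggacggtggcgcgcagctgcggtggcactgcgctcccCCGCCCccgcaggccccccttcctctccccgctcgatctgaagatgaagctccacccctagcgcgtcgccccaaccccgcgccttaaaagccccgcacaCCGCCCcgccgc

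The Prph promoter held TATAAA 31 bases and CCGCCC 24 bases before the start, and the Ina promoter held CCGCCC 111 and 12 bases before it. Searched on both strands of 32851 mouse promoter windows of that length, TATAAA occurred in 12.4%, GGGCGG in 32.7% and CCAAT in 33.8%. Neither window held CCAAT, and that of Ina held no TATAAA. G and C made up 65.2% of the Prph window and 70.8% of the Ina window, against a median of 52.4% over all windows. A match of letters is a description and not a binding site. In the gene table Nefh lies on chromosome 11, Nefl and Nefm on chromosome 14 with 1 annotated gene between them, Prph on 15 and Ina on 19.

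The regional comparison asks how the spared motor region differs from the affected one. Nefh, Nefm, Nefl and 1 probe set of Prph were lower in the oculomotor nucleus, and none of the 3 Ina probe sets was called. In bulk tissue, fewer cells of a type and less RNA per cell cannot be told apart. In mutants of 10 weeks 4 of the 8 probe sets were called lower, where 9.99% of all probe sets were. In mutants of 6 weeks 3 were called lower (11.7% of all) and 1 higher (12.2% of all), and in controls of 10 weeks 4 were called lower (6.94% of all). The mean over the 3 conditions called 4 lower, against 17.7% of all probe sets. Nefh, Nefm and Prph 1422530_at were called lower in each condition, as were 4.4% of all probe sets. Each of these counts includes Prph 1422530_at, which passed the limit on mean signal only through spinal cord, as given below. Nefh, Nefm and Nefl lay far above that limit in both regions. Arrays of the regions did not overlap for 36% of all probe sets in 10-week mutants, 37.4% in 6-week mutants and 46% in controls.

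**Figure D1:**
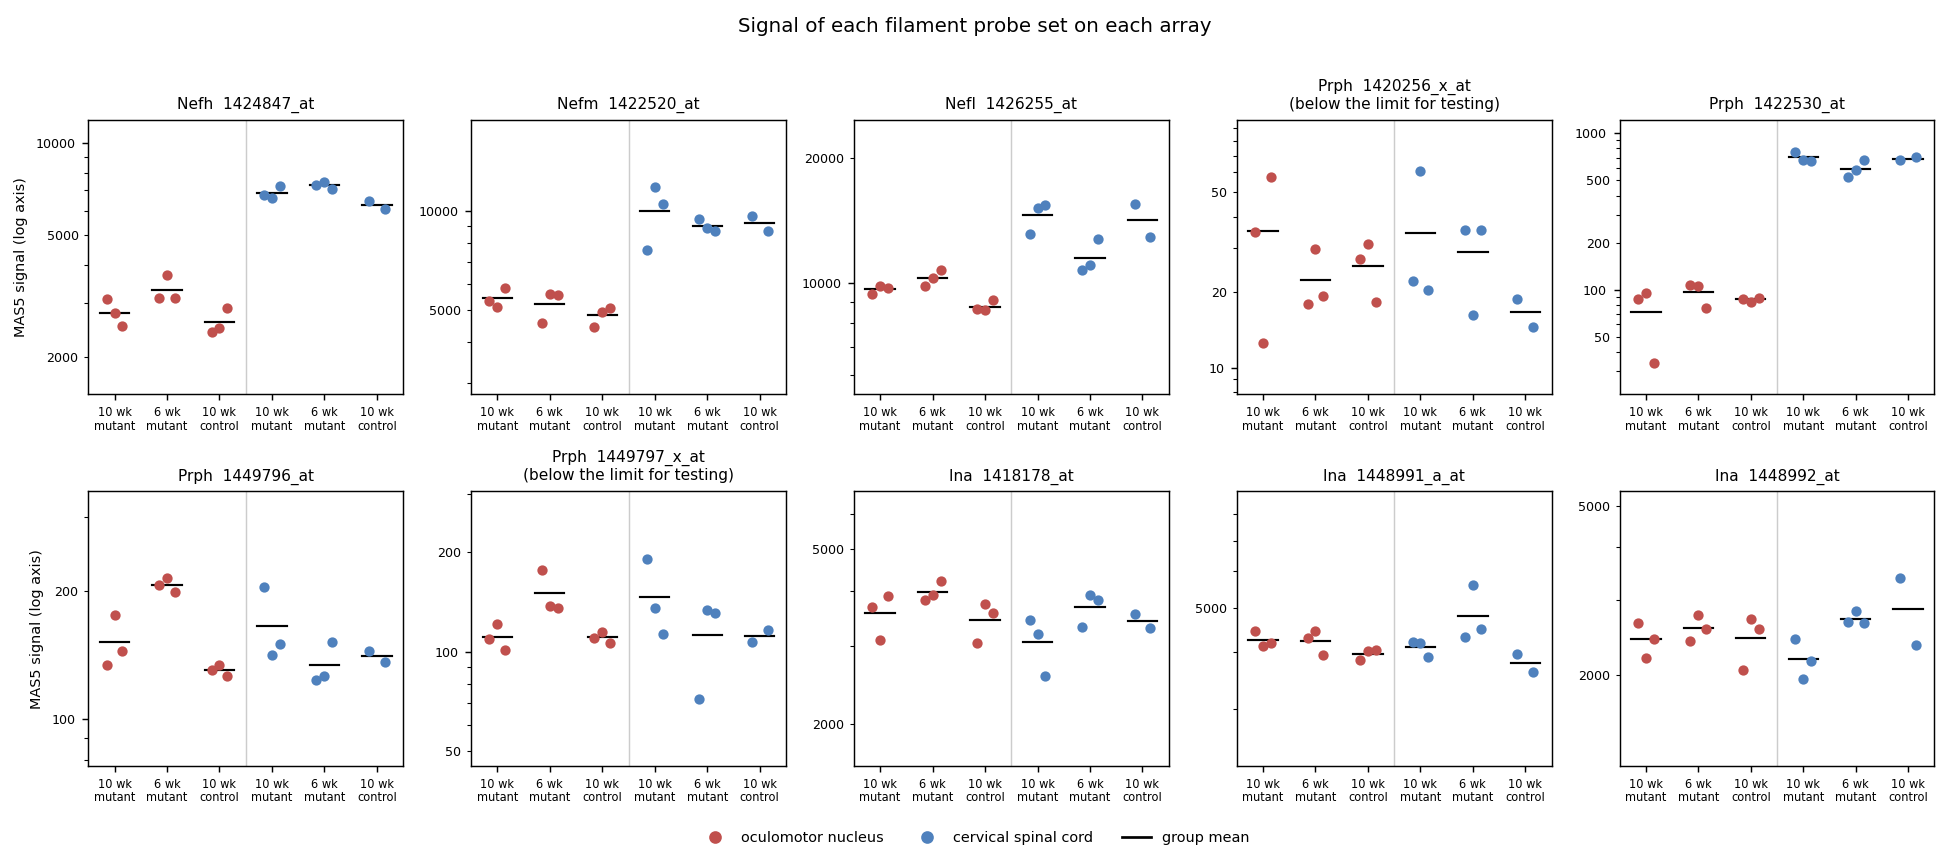
Signal on a log axis for each of the 10 probe sets, with 1 point per array, oculomotor nucleus left of cervical spinal cord in each panel, and a bar at the group mean. Nefh, Nefm and Prph 1422530_at show all oculomotor arrays below all spinal cord arrays, and the 3 Ina probe sets show both regions at like heights.

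Nefh, the heavy subunit, was the neurofilament gene with the largest regional difference. In 10-week mutants its signals were 3076.0, 2768.3 and 2510.4 in the oculomotor nucleus, against 6742.5, 6618.7 and 7215.1 in spinal cord. In 6-week mutants they were 3104.6, 3699.7 and 3102.2 in the oculomotor nucleus, against 7286.5, 7452.9 and 7085.2 in spinal cord. In 10-week controls they were 2404.0, 2479.4 and 2893.8 in the oculomotor nucleus, against 6480.9 and 6095.1 in spinal cord. The brightest oculomotor array lay far below the dimmest spinal cord array, whatever the age or genotype. The log2 fold change, oculomotor over spinal cord, was -1.30 ± 0.10 in 10-week mutants (SE; limma, adjusted p = 1.65e-08), -1.14 ± 0.10 in 6-week mutants and -1.27 ± 0.11 in controls. Their mean of -1.24 ± 0.06 is a level 2.36-fold lower, and leaving out any 1 of the 17 arrays kept it between -1.26 and -1.21.

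Nefm, the medium subunit, differed less. Its signals in 10-week mutants were 5328.9, 5100.7 and 5861.2 in the oculomotor nucleus, against 7605.6, 11855.4 and 10550.3 in spinal cord. In 6-week mutants they were 4567.9, 5594.3 and 5556.2 in the oculomotor nucleus, against 9488.4, 8865.4 and 8683.6 in spinal cord. In controls they were 4437.1, 4935.5 and 5095.7 in the oculomotor nucleus, against 9700.4 and 8737.1 in spinal cord. The regions again did not overlap, and 10-week mutant spinal cord had the widest spread because replicate 1 was low. The log2 fold change was -0.86 ± 0.13 in 10-week mutants (limma, adjusted p = 8.55e-05), -0.78 ± 0.13 in 6-week mutants and -0.93 ± 0.14 in controls, with a mean of -0.86 ± 0.08, a 1.81-fold lower level.

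Nefl, the light subunit, was the least different of the 3. In 10-week mutants it gave 9377.5, 9801.3 and 9725.5 in the oculomotor nucleus, against 13114.8, 15174.0 and 15391.5 in spinal cord. In 6-week mutants it gave 9793.2, 10291.4 and 10728.7 in the oculomotor nucleus, against 10721.2, 11056.8 and 12734.5 in spinal cord. In controls it gave 8616.1, 8592.0 and 9061.3 in the oculomotor nucleus, against 15474.4 and 12889.7 in spinal cord. The regions stood well apart at 10 weeks in both genotypes, while at 6 weeks the brightest oculomotor array just passed the dimmest spinal cord array. With the left-out control array in the fit, all 3 neurofilament genes turned positive in controls, at 0.59 for Nefh, 0.90 for Nefm and 1.41 for Nefl, and none was called. Without it, the Nefl log2 fold change was -0.59 ± 0.09 in 10-week mutants (limma, adjusted p = 9.33e-05) and -0.69 ± 0.10 in controls (adjusted p = 8.48e-05). In 6-week mutants it was -0.16 ± 0.09, with a 95% interval of -0.34 to 0.02 (adjusted p = 0.199).

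The 6-week value of Nefl depended on how arrays were scaled: after quantile normalization it was -0.39 (adjusted p = 1.89e-04). Nefl is among the brightest probe sets of every array, and at that end the arrays differed in shape. In a look added after the values were seen, the 227 brightest probe sets had a median regional log2 difference of 0.27 in 6-week mutants, with 202 higher in the oculomotor nucleus and 25 lower, against 0.05 in 10-week mutants and -0.10 in controls. By rank within an array, where 1 is the brightest of 22626, Nefl stood at 79 to 94 in 6-week mutant oculomotor nucleus and 19 to 37 in 6-week mutant spinal cord. At 10 weeks its ranks were 79 to 92.5 in mutant oculomotor nucleus and 17 to 24 in mutant spinal cord, and 56 to 75 in control oculomotor nucleus and 12 to 13 in control spinal cord. The regions did not overlap in rank in any of the 3 conditions. What part the scale of the brightest probe sets has in the signal-based value was not tested.

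Ina, the partner subunit of the central nervous system, is read by 3 probe sets, none of which was called in any condition. The brightest, 1448991_a_at, ran from 3848.9 to 4447.2 (median 4126.3) over the 9 oculomotor arrays and from 3614.3 to 5605.1 (median 4203.8) over the 8 spinal cord arrays. Set 1418178_at ran from 3046.3 to 4216.8 in the oculomotor nucleus and 2567.7 to 3926.6 in spinal cord, and 1448992_at from 2055.3 to 2760.6 in the oculomotor nucleus and 1950.9 to 3376.9 in spinal cord. The regions overlapped throughout. The mean regional log2 fold change was -0.02 ± 0.06 for 1448991_a_at (95% interval -0.13 to 0.10), 0.11 ± 0.07 for 1418178_at (-0.03 to 0.26) and -0.04 ± 0.08 for 1448992_at (-0.21 to 0.12). After quantile normalization 1448991_a_at was called lower in 6-week mutants, at -0.25 (adjusted p = 0.0455).

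A Prph probe set gave the largest difference among the filament probe sets, and the 4 sets of the gene disagreed. Probe set 1422530_at, the one with a RefSeq transcript in the annotation, had signals of 87.6, 94.9 and 34.2 in 10-week mutant oculomotor nucleus, against 762.8, 677.9 and 660.6 in 10-week mutant spinal cord. In 6-week mutants it had 107.8, 105.5 and 76.0 in the oculomotor nucleus, against 522.5, 585.7 and 675.3 in spinal cord. In controls it had 87.7, 83.8 and 88.7 in the oculomotor nucleus, against 670.5 and 706.6 in spinal cord. Every spinal cord array was several times brighter than every oculomotor array. Its log2 fold change was -2.96 ± 0.20 in 10-week mutants (limma, adjusted p = 5.75e-09), -2.35 ± 0.20 in 6-week mutants and -2.67 ± 0.22 in controls, with a mean of -2.66 ± 0.12. This set passed the limit on mean signal (7.38 on the log2 scale) only through spinal cord: its group means there were at least 9.27, and its oculomotor group means of 6.54 to 6.91 lay below that limit. With no filter on signal its adjusted p was 1.17e-07 in 10-week mutants, 1.41e-06 in 6-week mutants and 1.93e-06 in controls. Because the oculomotor signals are dim, the size depends on the offset: the mean was -2.04 with an offset of 100, and -3.01 with signals floored at 25 in place of an addition.

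Prph 1449796_at did not follow. It had 134.1, 176.1 and 144.1 in 10-week mutant oculomotor nucleus, against 205.1, 141.1 and 150.3 in 10-week mutant spinal cord. In 6-week mutants it had 207.1, 215.3 and 199.1 in the oculomotor nucleus, against 123.7, 125.9 and 151.5 in spinal cord. In controls it had 130.6, 133.6 and 126.1 in the oculomotor nucleus, against 144.4 and 136.4 in spinal cord. The 6-week oculomotor arrays stood above those of 6-week spinal cord, the 10-week mutant groups overlapped, and the control groups were close together. It was called higher in the oculomotor nucleus of 6-week mutants, by 0.55 ± 0.15 (limma, adjusted p = 0.0116), and not in 10-week mutants (-0.10 ± 0.15) or controls (-0.09 ± 0.17). This set passed the limit narrowly, with a mean of 7.48 against 7.38 on the log2 scale. Its 6-week oculomotor mean, 7.86, was the highest of the groups and counted toward passing, while its 6-week spinal cord mean, 7.31, lay below the limit.

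The annotation gives no transcript accession for 1449796_at or for either of the dim Prph sets. Of those, 1420256_x_at ran from 12.5 to 57.5 in the oculomotor nucleus and 14.5 to 60.8 in spinal cord, and 1449797_x_at from 100.9 to 177.1 in the oculomotor nucleus and 72.0 to 191.7 in spinal cord, so the regions overlapped in both. Within arrays, the log2 difference of 1422530_at over 1449796_at averaged -0.78 in the oculomotor nucleus and 1.99 in spinal cord. The shift between regions was -2.78 (exact two-sided permutation of regions within condition, adjusted p = 0.001 over the 4 pairs of probe sets of 1 gene). Its size rests on dim oculomotor signals and was -2.13 with an offset of 100. The 3 Ina pairs shifted by 0.03 to 0.16, with adjusted p of 0.112 to 0.792 in the same exact test. The 95% interval of Prph 1449796_at in the mean contrast, -0.07 to 0.31, does not include the change of 1422530_at. Which transcripts each set detects was not tested.

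**Figure D2:**
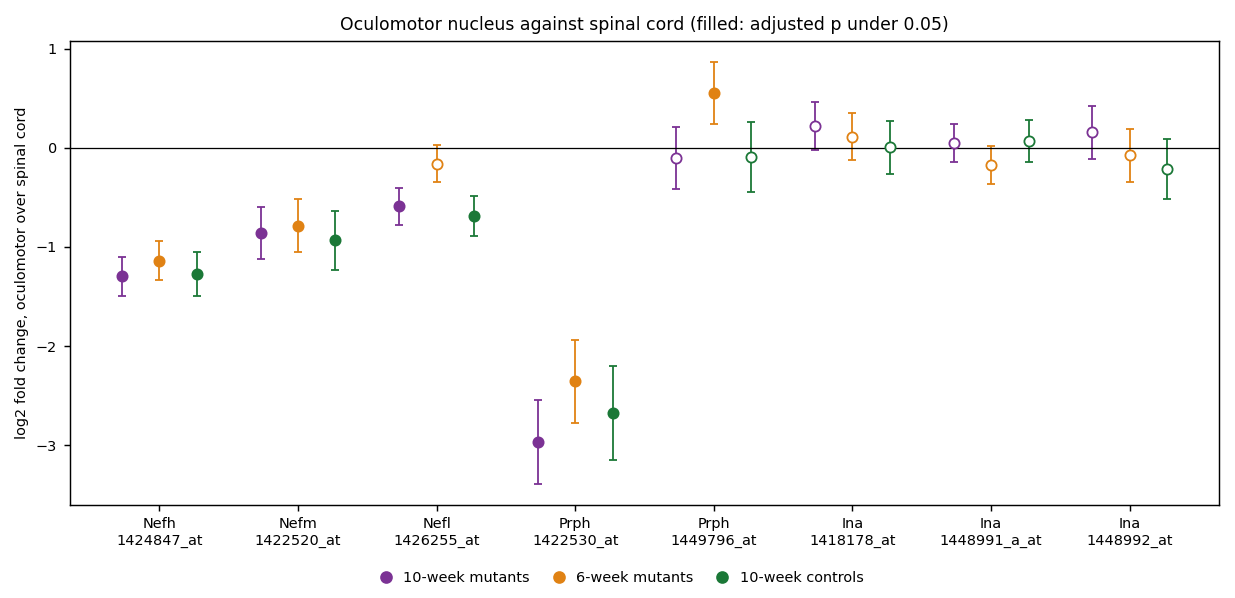
Log2 fold change of the oculomotor nucleus over cervical spinal cord for the 8 tested probe sets, in 10-week mutants, 6-week mutants and 10-week controls, with 95% intervals and filled points for an adjusted p under 0.05. Nefh, Nefm and Prph 1422530_at lie below 0 in all 3 conditions, Nefl nears 0 at 6 weeks (-0.16), and the Ina probe sets straddle 0.

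The regional difference was unequal across the family. Within each array, log2 differences between the leading probe sets of a pair of genes cancel a scale factor shared by the whole array. They do not cancel a difference in shape at the bright end, where Nefl lies. In the mean over the 3 conditions, every pair among Nefh, Nefm, Nefl and Ina shifted between regions. The adjusted p was at most 0.0045 (exact two-sided permutation of regions within condition, adjusted over all 10 pairs of genes). Pairs with Prph 1422530_at shifted too, but that set passed the limit on mean signal only through spinal cord. Those pairs are therefore given as values and not as support. Against Ina, Nefh shifted by -1.22, Nefm by -0.84 and Nefl by -0.46. In 6-week mutants the regional values of Nefl (-0.16) and Ina 1448991_a_at (-0.17) were alike on the deposited scale. After quantile normalization both were further below 0, as given above. Whether the shift of Nefl against Ina differs between conditions was not tested. Prph 1422530_at, dim in the oculomotor nucleus and tested through its spinal cord signal, shifted by -2.65 against Ina, or by -2.03 with an offset of 100. Nefh minus Ina ran from -0.73 to -0.26 over the 9 oculomotor arrays and from 0.41 to 0.88 over the 8 spinal cord arrays, so the regions did not overlap. Nefl minus Ina ran from 1.07 to 1.44 in the oculomotor nucleus and 0.98 to 1.97 in spinal cord, with some overlap at 6 weeks. Among the subunits themselves, Nefh shifted against Nefm by -0.38 (exact adjusted p = 0.000625) and Nefm against Nefl by -0.38 (exact adjusted p = 0.000833). The 4000 arrangements allow no p below 0.00025. Shifts against Prph, which was the lower gene in each pair, were 1.43 for Nefh, 1.81 for Nefm and 2.18 for Nefl, and each of these is smaller with an offset of 100 because Prph was dim.

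**Figure D3:**
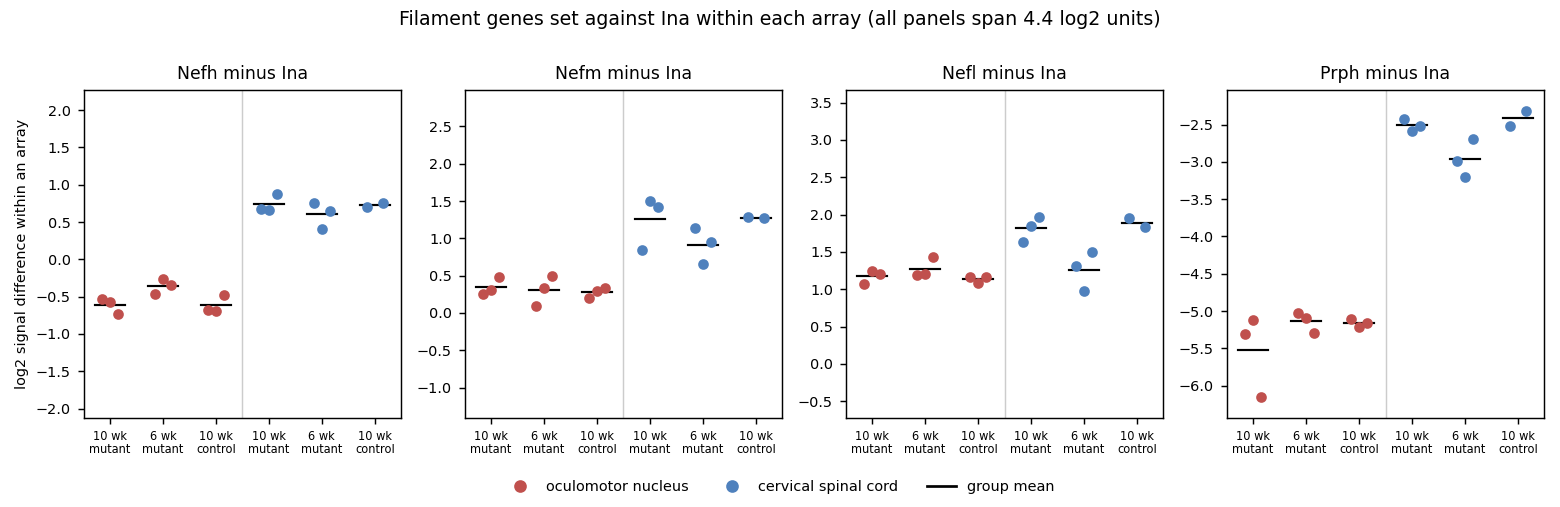
Log2 signal difference of Nefh, Nefm, Nefl and Prph (1422530_at) from Ina (1448991_a_at) within each array, with 1 point per array, oculomotor nucleus left of spinal cord, bars at group means and panels of equal span. Nefh, Nefm and Prph fall into regions that do not overlap, while Nefl in 6-week mutants meets in the middle.

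Ordered by mean signal, the 3 oculomotor groups came below the 3 spinal cord groups for Nefh, Nefm, Nefl and Prph 1422530_at. Nefh averaged 2592 ± 264 in control, 2785 ± 283 in 10-week mutant and 3302 ± 344 in 6-week mutant oculomotor nucleus (SD, n = 3 each). In spinal cord it averaged 6288 ± 273 (n = 2) in control, 6859 ± 315 (n = 3) in 10-week mutant and 7275 ± 184 (n = 3) in 6-week mutant samples. Its neighbours differed by more than the larger of both SDs, except 10-week mutant and control oculomotor nucleus. Nefm had a single such step, between 10-week mutant oculomotor nucleus (5430 ± 390, n = 3) and 6-week mutant spinal cord (9012 ± 422, n = 3). Nefl neighbours all differed by more than the larger SD except the top pair, 10-week mutant (14560 ± 1256, n = 3) and control spinal cord (14182 ± 1828, n = 2). Such a step is a description and not a call. Nefl was not called between 10-week mutant and control oculomotor nucleus (limma, adjusted p = 0.497). Prph 1422530_at had the 3 oculomotor groups together (means of 72.2 to 96.4), then 6-week mutant spinal cord (594.5 ± 76.8), then 10-week spinal cord (means of 700.4 in mutants and 688.6 in controls). For the Ina sets no neighbours were that far apart, with 1 exception: 1448992_at averaged 2423 ± 229 in 10-week mutant oculomotor nucleus and 2174 ± 235 in 10-week mutant spinal cord (n = 3 each).

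Between mutants and controls of 10 weeks, the comparison that asks how the model differs from control in each region, no filament probe set was called. In the oculomotor nucleus 1.47% of all probe sets were called. In spinal cord, with 2 control arrays, 0.0221% were, and the genotype by region term called 0% of all probe sets. At an unadjusted p under 0.05, limma gave 0 filament probe sets in the oculomotor nucleus, 1 in spinal cord and 0 for the term. The smallest adjusted p was 0.497 in the oculomotor nucleus, 0.328 in spinal cord and 0.822 for the term.

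In the oculomotor nucleus the log2 fold changes, mutant over control, were 0.10 for Nefh (95% interval -0.10 to 0.30), 0.17 for Nefm (-0.09 to 0.43) and 0.14 for Nefl (-0.05 to 0.32). All 3 mutant arrays lay above the 3 controls for 4 of the 8 probe sets, those of Nefm, Nefl, Prph 1449796_at and Ina 1448991_a_at, and 24% of all probe sets were separated in either direction. On the deposited scale the 227 brightest probe sets had a median of 0.24 in this contrast, and after quantile normalization the Nefl value turned to -0.12 (adjusted p = 0.438). Ina 1448991_a_at had 0.10 (-0.09 to 0.29) and Prph 1422530_at -0.27 (-0.69 to 0.15), with its lowest signal, 34.2, on mutant replicate 3, without which the value was 0.06 (adjusted p = 0.918). With 3 arrays a group, differences anywhere inside these intervals are compatible with the data.

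In spinal cord the values were 0.12 for Nefh (-0.10 to 0.35), 0.10 for Nefm (-0.20 to 0.39), 0.04 for Nefl (-0.17 to 0.25) and 0.02 for Prph 1422530_at (-0.45 to 0.49). Nefh was just higher on each mutant array here, at 6742.5, 6618.7 and 7215.1, against 6480.9 and 6095.1 in controls, as 27.5% of all probe sets were separated. The single unadjusted p under 0.05 belonged to Ina 1448992_at, with 2420.2, 1950.9 and 2151.0 in mutants, against 3376.9 and 2344.6 in controls. The groups overlapped, and its log2 fold change of -0.37 ± 0.14 (adjusted p = 0.328) was -0.63 or -0.11 when 1 or the other control array was left out. The other Ina sets had -0.17 and 0.12. The Nefl value turned to -0.14 after quantile normalization, and the Nefm value to -0.02.

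Between mutants of 10 and 6 weeks, Nefl in spinal cord was the only filament probe set called, among 2.76% of all probe sets there (1.78% higher at 10 weeks). In the oculomotor nucleus none of the 8 was called by limma, against 0.0221% of all, with 2 at an unadjusted p under 0.05. Nefl in mutant spinal cord had 13114.8, 15174.0 and 15391.5 at 10 weeks, against 10721.2, 11056.8 and 12734.5 at 6 weeks. Each 10-week array lay above each 6-week array, as happened in either direction for 23.6% of all probe sets. The log2 fold change was 0.34 ± 0.09, a 1.27-fold higher level (limma, adjusted p = 0.0445).

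The call stood on the threshold. After quantile normalization the value was 0.13 (adjusted p = 0.276) and after median centring 0.33 (adjusted p = 0.0633). It was also lost without spinal cord replicate 1 or 2 of 6 weeks or 2 or 3 of 10 weeks, without oculomotor replicate 2 of 6-week mutants, and without any of the 6 oculomotor arrays of 10 weeks, with values of 0.29 to 0.34 and adjusted p of 0.0538 to 0.163. The 227 brightest probe sets had a median of 0.13 in this contrast, with 184 higher and 43 lower, and the part of that shift in the Nefl value was not tested. In rank Nefl stood at 17 to 24 at 10 weeks, against 19 to 37 at 6 weeks, and these overlapped. Some markers of other cells also differed between these groups, in the opposite direction: 4 of 6 meningeal genes (median -0.78) and Pmp22 of Schwann cells and fibroblasts (-0.79 ± 0.16) were called lower at 10 weeks. None of the 7 tested oligodendrocyte and myelin genes was called (median 0.15). The part of these cells in the Nefl value was not tested.

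The other age values were below the threshold. In mutant spinal cord the 3 Ina sets were lower at 10 weeks by -0.32 ± 0.13 (1448992_at), -0.27 ± 0.11 (1418178_at) and -0.22 ± 0.09 (1448991_a_at), with unadjusted p of 0.0223 to 0.0298 and adjusted p of 0.176 to 0.198 in limma. Nefh had -0.09 (95% interval -0.28 to 0.11), Nefm 0.13 (-0.14 to 0.39) and Prph 1422530_at 0.23 (-0.19 to 0.65). In the mutant oculomotor nucleus Nefh had -0.24 ± 0.10 and Prph 1449796_at -0.40 ± 0.15 (adjusted p of 0.467 and 0.428), with each 10-week array below each 6-week array, as 14.2% of all probe sets were separated.

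The difference of the age effects between regions, which is also the change of the regional gap with age, called no filament probe set and 0.368% of all. At an unadjusted p under 0.05 limma gave 3: Nefl (-0.43 ± 0.12, adjusted p = 0.121), Prph 1449796_at (-0.66 ± 0.21, adjusted p = 0.155) and Prph 1422530_at (-0.61 ± 0.28, adjusted p = 0.299). So the regional gap of Nefl was not shown to differ between 6-week and 10-week mutants.

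**Figure D4:**
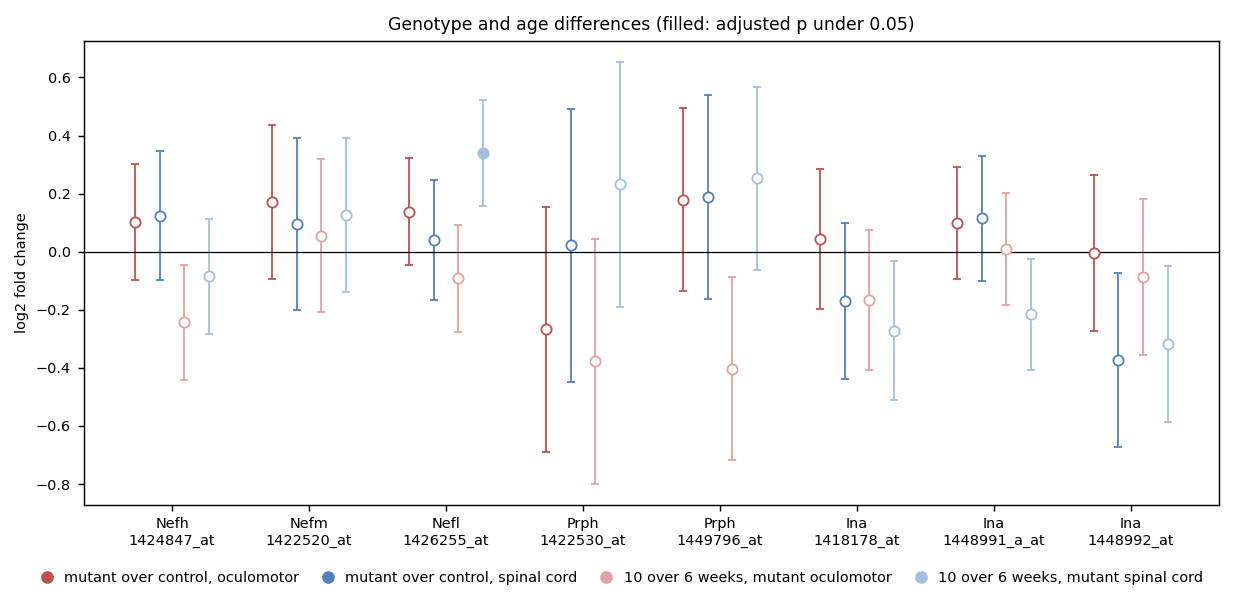
Log2 fold changes of the 8 tested probe sets for mutant over control at 10 weeks and for 10 over 6 weeks in mutants, in oculomotor nucleus and spinal cord, with 95% intervals and a filled point for an adjusted p under 0.05. Nefl in spinal cord between ages (0.34) is the only filled point.

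Other proteins of the axon and of its filaments were read from 5 lists, 1 probe set per gene, in the mean regional contrast, where 37.7% of all probe sets were called (20% higher, 17.7% lower) and the median of all was 0.02. Of 8 other intermediate filament genes tested, 4 were called lower in the oculomotor nucleus and 0 higher, at a median of -0.16. They were Gfap of astrocytes (-2.21 ± 0.12), Vim of glia, vessels and connective tissue (-1.36 ± 0.09), the progenitor filament gene Nes (-0.54 ± 0.11) and the nuclear lamina gene Lmna (-0.29 ± 0.07). Gfap ran from 1125.9 to 2548.5 in oculomotor samples and 7480.7 to 11155.7 in spinal cord.

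Genes of microtubules and their linkers did not share the direction of the neurofilaments. Of 17 tested, 5 were called higher and 2 lower, at a median of 0.01. Gap43, a growth-cone protein, was higher by 1.36 ± 0.05, with signals of 2817.3 to 3295.3 in oculomotor samples and 1037.6 to 1261.6 in spinal cord. The tubulin gene Tubb2a (0.39 ± 0.05), the axonal microtubule protein tau (Mapt, 0.38 ± 0.05) and stathmin (Stmn1, 0.30 ± 0.05), which destabilises microtubules, were higher too.

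Motors that carry cargo along the axon were split. Of 15 tested, 5 were called higher and 3 lower, at a median of 0.02, and the 4 with the smallest p were the kinesins Kif1a (0.39 ± 0.06) and Kif3a (0.48 ± 0.11), the myosin Myo5a (0.30 ± 0.08) and the dynactin subunit Dctn3 (-0.23 ± 0.06). Kinases and phosphatases that act on neurofilament tails had 4 higher and 2 lower of 12, at a median of 0.04, among them the kinase Mapk8 (0.33 ± 0.07), the Cdk5 activator Cdk5r1 (0.30 ± 0.07), the phosphatase subunit Ppp2r2b (-0.22 ± 0.06) and casein kinase Csnk1d (-0.17 ± 0.05). Of 6 turnover genes, 3 were higher and 2 lower, at a median of -0.01. The protease calpain 2 (Capn2, -0.40 ± 0.06) and the ubiquitin ligase Trim2, which acts on the light subunit (-0.26 ± 0.05), were lower, and Ubqln2 (0.28 ± 0.06) and Stub1 (0.20 ± 0.05), both of protein quality control, were higher.

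By genotype, 2 genes of these 5 lists were called in the oculomotor nucleus, where 1.47% of all probe sets were. They were 1 of 15 motors tested and 1 of 12 kinases and phosphatases. The kinesin heavy chain Kif5c was higher in mutants by 1.21 ± 0.16 (limma, adjusted p = 0.000863) and the kinase Gsk3b by 0.74 ± 0.16 (adjusted p = 0.0276). In spinal cord 0 were called by genotype, against 0.0221% of all probe sets. Between ages in mutant spinal cord, 2 of 17 microtubule genes tested were called lower at 10 weeks, against 0.972% of all probe sets. They were Mapt, by -0.34 ± 0.09 (limma, adjusted p = 0.0445), and Map6, which stabilises microtubules, by -0.61 ± 0.14 (adjusted p = 0.0249). Mapt stood as close to the threshold as Nefl did in this contrast. Calls of single list genes were not followed through the other settings.

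Markers of cell types moved with the regional differences of the filament genes, and their part in these was not tested. All 3 tested genes of the motor neuron list of 8 were lower in the oculomotor nucleus, at a median of -1.85: the vesicular acetylcholine transporter Slc18a3 (-1.85 ± 0.08), Chodl of fast motor neurons (-2.40 ± 0.12) and the choline transporter Slc5a7 (-0.87 ± 0.11). Summed over the 6 genes of that list on the array, signals ran from 551.5 to 806.8 in oculomotor samples and 1848 to 2481 in spinal cord, with Isl1, Mnx1 and Phox2a too dim to test. The limit on mean signal took both regions together, so the higher spinal cord signal of the 3 tested genes counted toward passing it. Lower calls for all 3 are therefore not a share for the whole list. Pan-neuronal markers did not fall in step: of 7, 2 were higher and 1 lower, at a median of 0.06, with Syt1 at 1.53 ± 0.06, Uchl1 at 0.23 ± 0.05 and Rbfox3 at -0.20 ± 0.08. Their summed signal ran from 34671 to 38037 in oculomotor samples and 29860 to 35886 in spinal cord.

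Glial and connective tissue lists were lower in the oculomotor nucleus: 7 of 7 myelin genes (median -0.47), 4 of 6 astrocyte genes with 1 higher (median -0.49), 4 of 5 microglial genes (median -0.68) and 6 of 6 meningeal genes (median -1.92). Summed myelin signal ran from 34793 to 61415 in oculomotor samples and 53442 to 71954 in spinal cord. Peripheral nerve was represented by Pmp22 (-2.09 ± 0.09), with 1037.1 to 1389.6 in oculomotor samples and 3540.3 to 9338.7 in spinal cord, while Scn10a of sensory neurons, with group means of 7.47 to 32.1, was too dim to test. The pituitary hormone Gh was higher in oculomotor samples (3.28 ± 0.71), with high signals on 2 arrays, control replicate 3 and 10-week mutant replicate 2. Without both of them the mean regional values of the filament probe sets kept their calls.

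**Figure D5:**
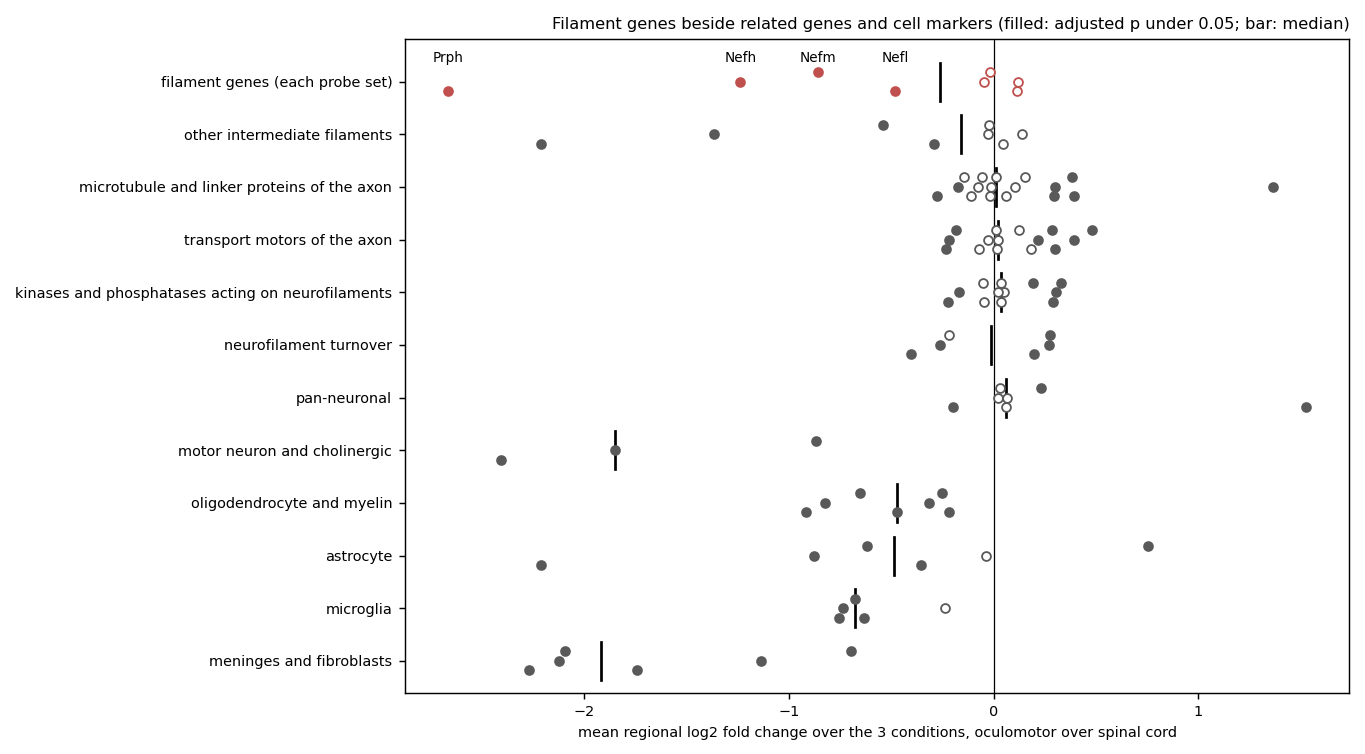
Mean regional log2 fold change over the 3 conditions for the 8 filament probe sets and for genes of 11 lists, 1 point per probe set, filled for an adjusted p under 0.05, with a bar at each median. Nefh, Nefm, Nefl and Prph 1422530_at lie to the left, as do the medians of the motor neuron, meningeal, microglial, astrocyte and myelin lists. Prph 1449796_at and the Ina sets lie near 0, and the microtubule, motor and pan-neuronal lists have medians near 0.

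Genes with the most similar pattern over the 17 arrays were ranked by Pearson's r of log2 signal among 8067 genes, as a description; these arrays hold both regions, so r mostly follows the regional gap. For Nefh they were the protease gene Klk6 (0.99), Sypl (0.98) and Hoxb6 (0.98), for Nefm the transcription factor gene Ebf2 (0.96), Cnn3 (0.96) and Apod (0.96), and for Nefl Epb41l3 (0.93), Lamtor4 (0.92) and Gm2a (0.92). For Prph 1422530_at they were Hoxc8 (0.99), Rai14 (0.98) and Hoxd8 (0.98). Ina had weaker matches, Bsdc1 (0.83), Irs2 (0.83) and Lgalsl (0.78). Within regions some of these links were weak: Hoxc8 and Prph had r = 0.81 over 9 oculomotor arrays and 0.14 over 8 spinal cord arrays, and Hoxb6 and Nefh had 0.71 over oculomotor arrays and -0.31 over spinal cord arrays.

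Among the 5 filament genes themselves, log2 signals over the arrays of a region gave 20 relations between leading probe sets (10 pairs in each region), with r from -0.64 to 0.72. Group means were not removed, so these relations include differences of age and genotype within a region. Spearman's rho ran from -0.74 to 0.73. None of the 20 passed an adjusted p of 0.05 in exact permutation tests, the smallest being 0.32 for r and 0.332 for rho, and 2 had an unadjusted p under 0.05 for r. Over oculomotor arrays 8 of the 10 pairs were positive and over spinal cord arrays 4 of 10.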

How the data were processed

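The 18 samples are total RNA of mouse tissue, hybridised as labelled cRNA on Affymetrix 430A arrays. The deposited values are intensity signals on a linear scale, which the authors computed with Affymetrix Microarray Suite 5.0, per the series' design text. The labels state no scaling; over the probe sets kept, the 2% trimmed mean ran from 497.5 to 498.7 on the 17 arrays used, and the 17 arrays were taken to share 1 scale. An error of scale at the bright end would move Nefl in particular, and an offset moves dim Prph signals.

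Of 22690 probe sets, 64 controls were removed. To each signal 25 was added, log2 was taken, and the 40% with the lowest mean were left out (limit 7.38), which left 13575. Symbols came from GEO's platform annotation: 1 symbol was given for 20380 probe sets (20351 of them updated through gene identifiers), more than 1 for 691, and none for 1555. Promoters of 2 of the 5 genes were matched.

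A mean for each of 6 groups was fitted over 17 arrays in R 4.3.3, using limma 3.58.1 with a trend of variance on signal and 11 residual degrees of freedom, with Benjamini-Hochberg adjustment in each of 10 contrasts. Within-array differences were tested by exact permutation in Python 3.11.15. The limma and permutation steps were tested on simulated data. Left out was control spinal cord replicate 1, whose signals hardly correlated with those of the other arrays.

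All filament probe sets are named. Of each list of related genes or markers, up to 4 genes with the smallest p in a contrast may be named, 1 probe set per gene (the brightest), and for likeness the 3 genes with the highest r. The members, lists and tests were chosen with earlier results of these data known. The looks at rank within an array, at the brightest probe sets and at the order of group means were added after the values were seen, and Phox2a, the sums of lists and the genes below the limit are named outside that rule.

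The alternatives were quantile normalization, median centring, signals floored at 25, an offset of 100, no filter, a filter of 60%, no variance trend, fits of only the arrays in a contrast, the replicate number as a block, each gene at its brightest probe set, a pairwise rule modelled on that of the submitters (all pairs of arrays in 1 direction, mean change above 2-fold), all 18 arrays, leaving out the arrays of high pituitary signal, and leaving out each array.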

Additional observations from a re-analysis of the deposited data

How the results depend on the processing

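Over 30 other settings, the log2 fold changes of single probe sets stayed on their side of the threshold in 2238 cases, were no longer called in 26, became called in 2, and in 4 called cases turned round. Of the 2238, 2167 kept their direction and 71 changed sign, all of them values not called in either fit: 60 on the arrays used elsewhere or fewer, and 11 with all 18 arrays. Of the counts of called filament probe sets, 269 stayed within 1.5 times and 28 moved, and of the within-array shifts 279 stayed on their side of the threshold, 2 of them with a change of sign, and 1 became called (Ina 1418178_at minus 1448992_at without 10-week mutant spinal cord replicate 2: 0.19, adjusted p = 0.023). The 4 called values that turned round came from the fit of all 18 arrays, which holds the array left out elsewhere: Nefh 0.59, Nefm 0.90 and Nefl 1.41 in controls, and Nefl 0.22 in the mean contrast. That fit called 1 filament probe set in each of the 3 regional contrasts and in their mean, and 0 for age in spinal cord. The single age call, Nefl in spinal cord, gave way to 0 with quantile normalization, median centring, no filter, no variance trend, only the arrays of the contrast, without both arrays of high pituitary signal, and under the pairwise 2-fold rule; leaving out 1 array gave counts of 0 to 1. For the remaining regional and genotype counts leaving out 1 array never moved a count by over 1.5 times. A filter of 60% called 2 in 6-week mutants, because it leaves 6 filament probe sets and drops both of Prph. The pairwise 2-fold rule called 2 in each regional contrast, Nefh and Prph, and 1 for genotype in spinal cord, the dim Prph 1420256_x_at. Over all probe sets, the 200 called for genotype in the oculomotor nucleus became 118 with no filter, 392 with only the arrays of the contrast, 62 with 1 probe set per gene and 57 without both arrays of high pituitary signal. The 374 for age in spinal cord became 42 with only the arrays of the contrast, and the 50 for age by region became 13 with quantile normalization or median centring and 0 with no filter. The small counts, 3 each for genotype in spinal cord and age in the oculomotor nucleus, ran from 1 to 5 for genotype and 0 to 14 for age, apart from the fit of all 18 arrays, which called 0 in both, the pairwise rule and the fits without 1 array. Leaving out 1 array gave 0 to 51 for genotype in spinal cord, 47 to 341 for genotype in the oculomotor nucleus, 86 to 451 for age in spinal cord and 875 to 1972 for the regional difference in controls. With all 18 arrays the regional counts were 209 in 10-week mutants (2619 without the array left out), 310 in 6-week mutants (3239) and 314 in controls (1841). The pairwise rule called 478 for genotype in the oculomotor nucleus and 955 in spinal cord.

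Replicate numbers recur in every group. Arrays of the same number in different groups deviated from their group means with r of -0.10 to 0.13 (median 0.02, 40 pairs), against -0.16 to 0.16 (median -0.02, 80 pairs) for different numbers, so the numbers were not taken to pair arrays. The fit with the replicate block called 4 filament probe sets in each regional contrast, 1 for age in spinal cord and 0 elsewhere, and changed no call. Signals near the offset limit what can be said of Prph in the oculomotor nucleus, and the control spinal cord group of 2 arrays limits the genotype comparison there.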
